A study of Homo sapiens with 24 samples.

Results

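S100A8 and S100A9 are small calcium-binding proteins that pair with each other and are known as secreted cytokines, and neither has a conventional DNA-binding domain. The regions described here are the S100A9-only sites: regions called for Flag-tagged S100A9 in transformed breast epithelial cells that overlapped no deposited peak for Flag-tagged S100A8. They number 1279 of 25133 confident S100A9 sites (5.09%), and 23854 S100A9 sites overlapped at least 1 S100A8 peak. A confident site was a region on chromosomes 1 to 22 or X in which S100A9 peaks with a −log10 q of 7 or more from at least 2 of the 3 tamoxifen libraries overlapped by 1 bp or more. The S100A9-only sites were then selected on the lack of a called S100A8 peak. A single S100A8 peak of any q in any of 5 S100A8 lists, with or without tamoxifen, removed a site.

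All cells were MCF-10A–ER-Src, a nontransformed human mammary epithelial line in which the v-Src oncoprotein is fused to the ligand-binding domain of the estrogen receptor, so that tamoxifen switches Src on and transforms the cells. The S100A9 cells carried a stably integrated retroviral vector for S100A9 with a C-terminal Flag tag, and the S100A8 cells carried the same for S100A8. Both lines were selected with hygromycin after infection, and the endogenous genes remained in them. Cells were kept for 24 h in 1 µM tamoxifen (TAM; 3 libraries for S100A9 and 3 for S100A8) or in ethanol (EtOH; 3 libraries for S100A9 and 2 for S100A8), cross-linked protein to protein and then with formaldehyde, and precipitated with a Flag antibody.

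A protein without a DNA-binding domain can be cross-linked to DNA through other proteins, and the recognition sequences of known factors were therefore looked for under the sites. AP-1, a dimer of Fos and Jun proteins, binds TGAGTCA, read on either strand, and works mostly at enhancers. CTCF is an insulator protein with a long motif. ETS factors and KLF/SP1 factors are typical of GC-rich promoters. C/EBP and TEAD factors act mainly at distal elements.

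The summit sequences of the S100A9-only sites with the highest S100A9 enrichment show what lay under them. Below are 101 bases centred on the summit, hg19 (GRCh37), plus strand, for 6 of the sites called in all 3 TAM libraries that were among the 10 highest in mean percentile of fold enrichment and held a whole AP-1 motif. Each is named for the gene with the nearest protein-coding start site. Capitals mark AP-1 matches, as TGAGTCA or as its reverse complement, and, at PDCD1LG2 only, a C/EBP match (the first run of capitals). All 6 have the AP-1 motif within 50 bp of the summit.
PDCD1LG2, chr9:5509784-5509884: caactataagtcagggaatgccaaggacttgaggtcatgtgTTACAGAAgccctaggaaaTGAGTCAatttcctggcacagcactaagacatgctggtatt
RPAP2, chr1:92795031-92795131: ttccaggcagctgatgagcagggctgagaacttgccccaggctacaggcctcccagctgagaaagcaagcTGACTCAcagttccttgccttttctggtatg
SLC35F4, chr14:58216114-58216214: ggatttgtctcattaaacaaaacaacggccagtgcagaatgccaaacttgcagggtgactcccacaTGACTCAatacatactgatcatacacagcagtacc
TCF7L2, chr10:114635742-114635842: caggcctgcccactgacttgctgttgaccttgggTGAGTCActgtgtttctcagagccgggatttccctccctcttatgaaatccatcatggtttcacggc
RGMA, chr15:93716801-93716901: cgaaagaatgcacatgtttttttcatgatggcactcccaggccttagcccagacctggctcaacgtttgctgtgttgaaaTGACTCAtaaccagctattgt
OR4C15, chr11:55248985-55249085: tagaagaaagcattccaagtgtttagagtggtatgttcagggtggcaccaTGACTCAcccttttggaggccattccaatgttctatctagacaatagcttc

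The printed sites were picked for holding AP-1, which lay within 50 bp of the summit at 8 of these 10 sites and at 24.1% of all S100A9-only sites. Over all S100A9 sites that share was 19.6%. Within 100 bp, S100A9-only sites called in all 3 TAM libraries held AP-1 at 29.4%, against 30.1% of all S100A9-only sites. Of the 4 not printed, those nearest to IRX5 and CLMN had no exact AP-1 match within 50 bp of the summit, and those nearest to EXT1 and TRMT11 had one. The second kind of sequence under S100A9-only sites was a CTCF motif. The example below lies 63966 bp upstream of the nearest protein-coding start, that of TMEM63B. It was picked after its values were seen, since it had the highest mean percentile of the sites called in all 3 TAM libraries with a CTCF match within 50 bp of the summit. Its capitals mark the CTCF match.
TMEM63B, chr6:44030635-44030735: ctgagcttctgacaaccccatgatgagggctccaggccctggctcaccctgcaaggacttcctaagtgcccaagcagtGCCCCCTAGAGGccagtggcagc

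The third group shown here is the 3 S100A9-only sites that also had an S100A9 peak in every EtOH list. They lie close to gene starts and hold none of the motifs that were marked in capitals above.
CDR2, chr16:22385333-22385433: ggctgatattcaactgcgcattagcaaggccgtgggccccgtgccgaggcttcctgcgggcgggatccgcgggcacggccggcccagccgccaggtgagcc
THSD4, chr15:71408513-71408613: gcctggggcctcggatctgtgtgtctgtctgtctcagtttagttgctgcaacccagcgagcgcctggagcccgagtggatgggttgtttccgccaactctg
NFXL1, chr4:47916520-47916620: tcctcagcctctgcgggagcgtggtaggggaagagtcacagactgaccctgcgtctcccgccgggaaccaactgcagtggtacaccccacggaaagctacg

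The files are peak lists, 1 per library, each called against that library's own chromatin input. They hold from 53439 to 109500 peaks in the 6 TAM lists and from 9578 to 34653 in the 5 EtOH lists, and they reach down to a q value of 0.05. The number of reads behind a peak is unknown, so the lists cannot tell a region without S100A8 signal from one whose signal fell short of the caller's threshold. Confident S100A9 sites lay at the promoters of 6 of 8 basal mammary and 5 of 6 luminal marker genes, ESR1 among the latter. They also lay at those of 0 of 4 leukocyte and 2 of 4 fibroblast ones. Part of ESR1 is in the Src fusion, and a promoter-proximal ESR1 site at chr6:152265385-152265687 lay over an ESR1 coding exon. Confident S100A9 sites also lay over ESR1 coding exons at chr6:152415535-152415737 and chr6:152419857-152420119. The latter had −log10 q values of 80.0, 103 and 42.6 in S100A9 EtOH replicates 1 to 3. Signal at these exon sites from the gene and from the fusion cannot be told apart, which bears on ESR1 in the luminal count. None of these 22 genes had an S100A9-only site assigned to it, to be read beside 7.86% of all protein-coding genes and 11.1% of those with any S100A9 site.

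The transgenes themselves gave no S100A9-only site. Of 10 confident S100A9 sites in the interval of chromosome 1 that holds the S100A9 and S100A8 genes, 0 were S100A9-only, and 0 S100A9-only sites touched a coding exon of S100A9, S100A8, ESR1 or SRC. The S100A9 site over a coding exon of S100A9 at chr1:153330744-153331009 was removed by 1 peak: S100A8 TAM replicate 1 had a −log10 q of 5.995 there, and the other 4 S100A8 lists had none. It had S100A9 peaks in all 6 S100A9 lists, with fold enrichment of 4.21, 8.70 and 3.77 in TAM replicates 1 to 3 and 13.3, 6.05 and 5.98 in EtOH replicates 1 to 3.

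The S100A9 values that chose the sites were modest. Of the S100A9-only sites, 160 (12.5%) were called in all 3 TAM libraries, against 43.0% of all S100A9 sites, and 1119 were called in exactly 2. The pairs were replicates 1 and 3 at 493 sites, replicates 2 and 3 at 470, and replicates 1 and 2 at 156, so replicate 3, which had the longest list, took part in 87.8% of the S100A9-only sites, compared with 93.2% of the sites with an S100A8 peak. Without TAM replicate 1, 2 or 3 of S100A9 the rule gave 631, 658 and 320 sites, and without replicate 1, 2 or 3 of S100A8 TAM it gave 2523, 2058 and 2024. Sites called in all 3 libraries were S100A9-only in 1.48% of cases and sites called in 2 libraries in 7.603% to 8.82%.

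Fold enrichment is known only where a library had a peak of any q, which was the case at 75.7%, 73.3% and 95.4% of S100A9-only sites in TAM replicates 1 to 3 and at 91.5%, 91.1% and 98.9% of S100A9 sites with an S100A8 peak. Where there was a peak, fold enrichment over input at the S100A9-only sites had a median of 7.37 in TAM replicate 1, with a range of 2.88 to 19.7. In TAM replicate 2 the median was 7.86 (2.99 to 15.9) and in TAM replicate 3 it was 7.13 (2.66 to 19.2). At S100A9 sites with an S100A8 peak the medians were 7.87, 8.31 and 7.77, with highest values of 43.2, 38.2 and 30.4. Among sites with a peak, the medians of the 2 sets thus lay close together in each library, and the highest values were those of sites with an S100A8 peak.

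The library that did not call a site often had nothing there. Among S100A9-only sites called in exactly 2 libraries, the remaining S100A9 TAM library had a peak below the threshold at 36.5%, against 66.6% of sites with an S100A8 peak. In all, 568 S100A9-only sites (44.4%) had an S100A9 peak of any q in all 3 TAM lists, compared with 81.5% of the others.

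S100A9-only sites were concentrated among weak and narrow S100A9 sites. When all S100A9 sites were ranked by mean percentile of fold enrichment over the 3 TAM lists (a missing peak counted as 0), 11.1% (95% Wilson interval 10.4 to 11.9) of the lowest 25% of sites were S100A9-only. The share was 5.27% in the next group of the same size, 3.07% in the next and 0.907% (0.701 to 1.17) in the highest. The median width was 204 bp for S100A9-only sites, 257 bp for S100A9 sites whose S100A8 peaks all had a −log10 q under 7, and 333 bp for all sites with an S100A8 peak. By width, the S100A9-only share ran from 13.3% in the narrowest 25% of sites to 0.302% in the widest. A wide region also has more room to overlap an S100A8 peak, and the part of width itself in the choice was not tested.

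**Figure D1:**
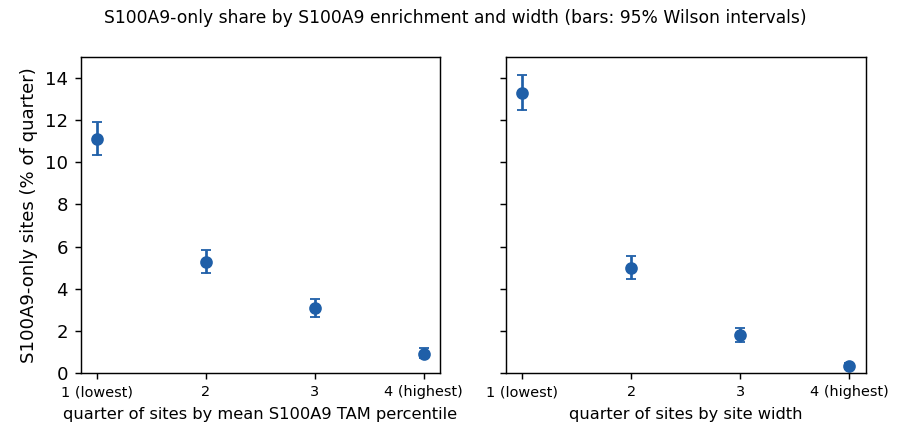
Share of S100A9-only sites (vertical axis, % of sites in the group) in 4 equal groups of the 25133 S100A9 sites, by mean percentile of S100A9 fold enrichment over the 3 TAM lists (left) and by site width (right). Points are shares and bars are 95% Wilson intervals, which cover counting error over sites only. The share falls from 11.1% to 0.907% on the left and from 13.3% to 0.302% on the right.

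Sites at the edges of the rule show how finely it cut. The 3 S100A9-only sites nearest to the threshold each had a second-highest S100A9 −log10 q of 7.001, and the nearest regions without an S100A8 peak that failed had 6.99 in each case. On the S100A8 side, the weakest S100A8 peaks that removed a site had a −log10 q of 1.35 to 1.36. At 88 S100A9 sites the highest S100A8 −log10 q was under 2, and at 2947 sites 1 of the 5 S100A8 lists supplied the only S100A8 peak. With S100A8 peaks of −log10 q of 7 or more alone counted, 4719 sites would have been S100A9-only.

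S100A8 peaks were often near. The median gap from an S100A9-only site to the nearest S100A8 peak was 3518 bp, 54 sites (4.22%) had one within 100 bp, and 342 (26.7%) had one within 1000 bp. At the other end, 314 sites (24.6%) were more than 10000 bp away and 32 were more than 50000 bp away. The nearest other S100A9 site was farther for S100A9-only sites than for the rest, with medians of 23113 and 14754 bp.

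The farthest S100A9-only sites called in all 3 TAM libraries were on several chromosomes. The farthest of these was in an intron of F8, the coagulation factor VIII gene, at chrX:154146363-154146581. It lay 89065 bp from any S100A8 peak, with fold enrichment of 6.98, 6.94 and 5.996 in TAM replicates 1 to 3. The next was in a coding exon of PHKA1, a phosphorylase kinase subunit, at chrX:71840479-71840687 (43823 bp; 10.7, 8.40 and 9.74). The others lay near TUBB8B on chromosome 18 (42119 bp), near PRR15 on chromosome 7 (39644 bp) and in KCNH1 on chromosome 1 (37660 bp). None of these 5 had an S100A9 peak in any EtOH list.

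How often S100A9 sites lack a peak in a further library was described for both proteins. S100A9 sites were called from each pair of S100A9 TAM libraries and looked up in the remaining S100A9 TAM list and in the 3 S100A8 TAM lists. The remaining S100A9 list had no peak of any q at 13.7% (replicate 1 left out), 14.3% (replicate 2) and 2.65% (replicate 3) of the pair's sites. Single S100A8 lists had none at 12.7% to 22.1% of these sites, with a median of 17.3%. For each pair, every S100A8 list missed a larger share than the S100A9 list did, by 2.30 to 14.7 percentage points.

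In the reverse direction the order turned. Sites of 2 S100A8 TAM libraries lacked a peak in the remaining S100A8 list at 12.5% to 16.4%, and in single S100A9 lists at 2.94% to 11.8%. The S100A9 TAM lists held 59128 to 109500 peaks and the S100A8 TAM lists 53439 to 98345, and among the lists of 1 protein the shares followed list length: S100A9 TAM replicate 3, the longest list, missed 2.65% to 3.55% of the sites of either protein. Of 18407 confident S100A8 TAM sites, 287 (1.56%) overlapped no peak in any of the 6 S100A9 lists. List length, read depth and protein cannot be told apart in these shares.

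**Figure D2:**
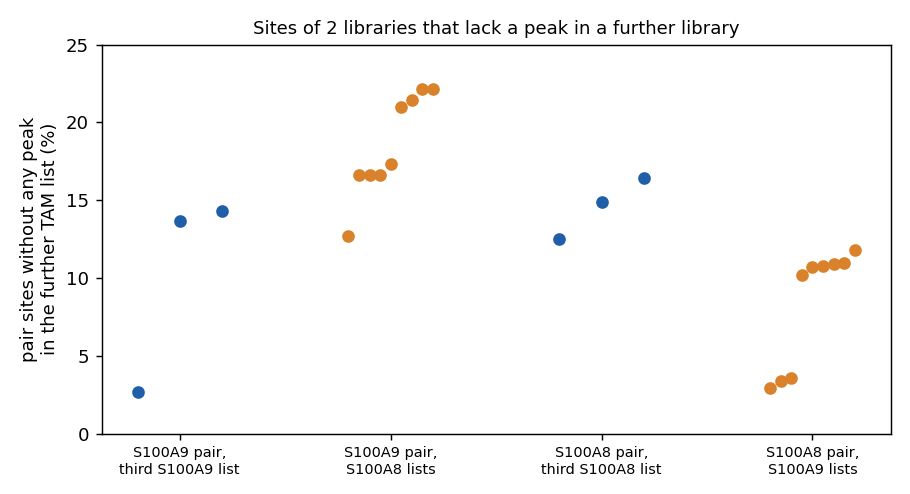
Share of sites called from a pair of TAM libraries of 1 protein (vertical axis, %) that have no peak of any q in a further TAM list. Blue points are the remaining list of the same protein (3 pairs) and orange points are lists of the other protein (3 pairs by 3 lists). S100A9 pairs lack a peak in single S100A8 lists at 12.7% to 22.1%, and S100A8 pairs lack one in single S100A9 lists at 2.94% to 11.8%.

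S100A9-only sites rarely had a peak in the S100A9 EtOH lists. These lists took no part in choosing the sites, but the 2 S100A8 EtOH lists did, since a peak in either removed a site. Single S100A8 EtOH lists lacked a peak at 64.0% and 61.9% of all S100A9 sites. The rule thus moved sites with an S100A8 peak in ethanol into the other set, and the comparison was not independent of ethanol occupancy. EtOH replicate 1 had an S100A9 peak of any q at 89 of the 1279 S100A9-only sites (6.96%), replicate 2 at 36 (2.81%) and replicate 3 at 119 (9.30%). At S100A9 sites with an S100A8 peak the shares were 37.0%, 21.9% and 40.3%. Every EtOH library showed the lower share at S100A9-only sites, and the ranges of the 2 sets did not overlap.

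The mean share was 6.36% ± 3.29 (SD, n = 3) at S100A9-only sites and 33.0% ± 9.81 at the others, a difference of −26.7 percentage points ± 6.61 (exact two-sided paired permutation test over the 3 libraries, p = 0.25, the smallest p that 3 libraries allow). Counting sites with a peak in at least 1 EtOH list gave 209 S100A9-only sites (16.3%), against 55.7% of all S100A9 sites. Sites whose S100A8 peaks all had a −log10 q under 7 fell between, at 17.4%, 8.28% and 21.4%. The S100A9 EtOH peaks that did occur at S100A9-only sites were low, with a median −log10 q of 4.38, 4.54 and 4.13 in replicates 1 to 3.

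S100A9 strength and promoters moved with this difference. With the S100A8 TAM lists alone in the rule, the mean difference was −25.1 percentage points. Compared within groups of sites with the same number of calling TAM libraries and the same rank group of TAM percentile, the mean difference was −17.6 percentage points. At distal sites alone, a comparison added after the data were seen, it was −17.3 points: distal S100A9-only sites had an EtOH peak in 5.85%, 1.77% and 8.69% of cases and other distal sites in 25.8%, 13.3% and 29.1%. The nonoverlap between the sets was thus present within distal sites as well.

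**Figure D3:**
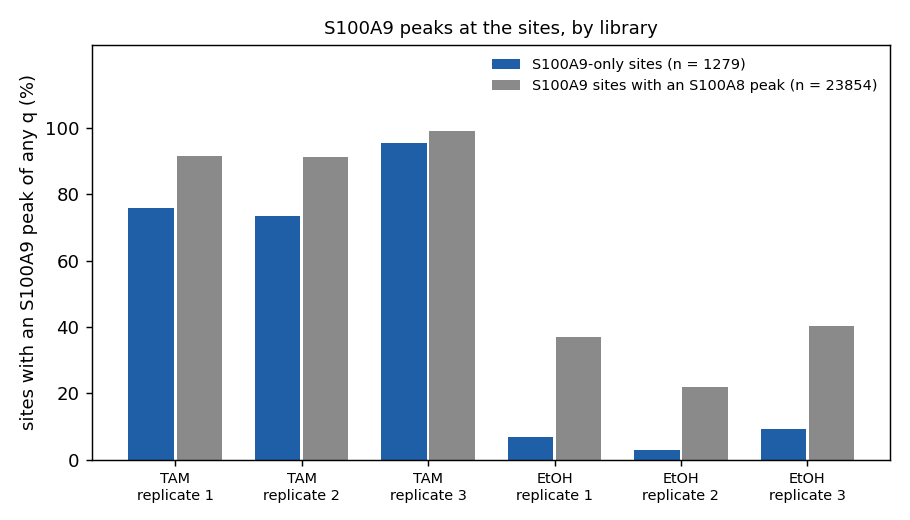
Share of sites (vertical axis, %) with an S100A9 peak of any q in each S100A9 library (horizontal axis). Blue bars are the 1279 S100A9-only sites and grey bars the 23854 S100A9 sites with an S100A8 peak. The S100A9 TAM lists and the S100A8 lists, EtOH included, chose the sites, and the TAM bars are a description. In the EtOH lists the blue bars reach 2.81% to 9.30% and the grey bars 21.9% to 40.3%.

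The 3 S100A9-only sites with a peak in every S100A9 EtOH list lay near gene starts. The site at chr16:22385137-22385542 was 375 bp downstream of a start of CDR2, an antigen of cerebellar degeneration, and had EtOH −log10 q values of 9.97, 5.50 and 10.2. The site at chr15:71408455-71408697 was 559 bp downstream of a start of THSD4, which encodes a microfibril-associated protein, with 3.61, 3.85 and 11.6. The site at chr4:47916327-47916893 was 30 bp from a start of NFXL1, a zinc finger gene of the NFX1 family, with 10.3, 3.95 and 3.37. Each had an S100A8 peak close by, at 321, 108 and 186 bp. Their TAM enrichment was 4.73, 8.10 and 5.996 at CDR2, 10.99, 8.95 and 3.69 at THSD4, and 7.20, 7.24 and 9.14 at NFXL1, with the THSD4 and CDR2 sites called in 2 TAM libraries and the NFXL1 site in 3.

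S100A9-only sites were mostly distal. Summits no more than 1500 bp before or 250 bp after the start of a protein-coding gene were counted as promoter-proximal, and 151 S100A9-only sites (11.8%, 95% Wilson interval 10.2 to 13.7) met this. The share was 26.3% at S100A9 sites whose S100A8 peaks all had a −log10 q under 7 and 37.6% at all sites with an S100A8 peak. By calling library the shares at S100A9-only sites were 10.6%, 13.4% and 11.1% (TAM replicates 1 to 3) and those at the others 38.7%, 40.2% and 38.0%. The sets differed by more than 26 percentage points among the sites called by each library. The same TAM calls chose the sites, so these library shares were taken over largely the same sites. Their spread therefore does not measure variation between replicates.

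Introns and places far from genes held larger shares. Introns held 479 S100A9-only sites (37.5%, against 25.5% of sites with an S100A8 peak), and intergenic places more than 50 kb from any protein-coding start held 297 (23.2% against 13.2%). Intergenic places nearer to a gene held 298 (23.3% against 20.1%). Coding exons held 18 (1.41% against 1.40%). The median distance from a summit to the nearest protein-coding start was 17392 bp, compared with 3978 bp for the others.

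The promoter share was also lower within groups by number of calling TAM libraries and rank of TAM percentile. The sets still differed in width there. With 2 calling libraries, median widths in the 3 lower rank groups were 192, 213 and 211 bp for S100A9-only sites. Those of the others were 254, 298 and 331 bp. With 3 calling libraries, the highest rank group had 217.5 against 451 bp. The part of width in the promoter share was not tested. Among sites called in 2 TAM libraries, 11.1%, 12.8% and 18.0% of S100A9-only sites in the 3 lower rank groups of TAM percentile were promoter-proximal, compared with 24.4%, 32.9% and 43.6% of the others. Among sites called in all 3 libraries, 12.5% of the 56 S100A9-only sites in the highest rank group were promoter-proximal and 49.8% of the others. Within promoters, summits of S100A9-only sites spread farther upstream: they lay at a median of 98 bp upstream of the start, with the most distant 25% beyond 617 bp, whereas those at the others lay at a median of 42 bp, with the most distant 25% beyond 148 bp.

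**Figure D4:**
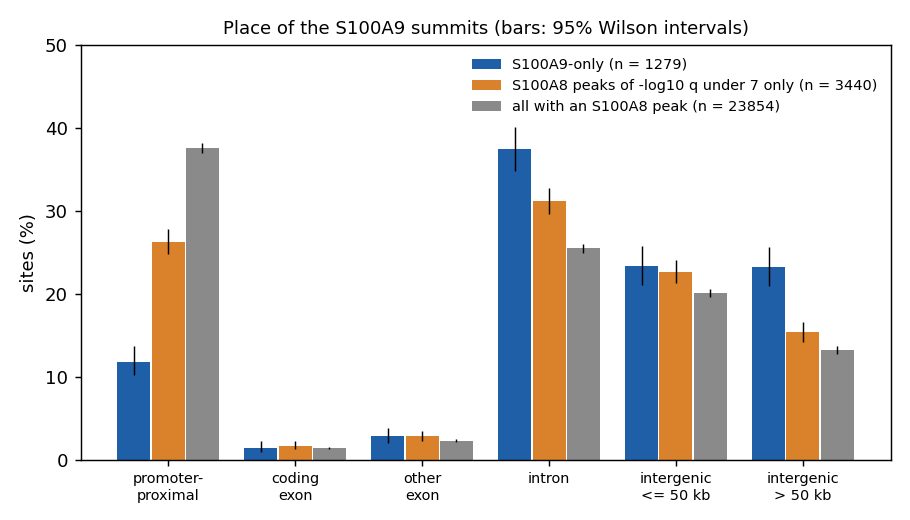
Place of the summit in the gene annotation (horizontal axis) as a share of sites (vertical axis, %). Blue is S100A9-only sites, orange is S100A9 sites whose S100A8 peaks all have a −log10 q under 7, and grey is all S100A9 sites with an S100A8 peak, with the orange sites included in the grey. Bars are 95% Wilson intervals over sites. The promoter-proximal share steps from 11.8% through 26.3% to 37.6%.

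The promoter-proximal S100A9-only sites with the highest mean TAM percentile were at PDCD1LG2, DIS3L2, CRTC2, CACNG3 and TMEM80. PDCD1LG2 encodes PD-L2, a ligand of the PD-1 immune checkpoint receptor. Its site at chr9:5509741-5509951 lay 697 bp upstream of the start, had the highest mean percentile of all S100A9-only sites called in 3 libraries, and had fold enrichment of 9.30, 11.5 and 14.4 in TAM replicates 1 to 3 with no EtOH peak. CRTC2 is a coactivator of CREB, and its site at chr1:153924394-153924590 lay 90 bp downstream of a start (8.04, 9.75 and 11.2). DIS3L2 encodes an exoribonuclease (8.57, 11.8 and 8.52) and CACNG3 a calcium channel subunit (6.98, 10.98 and 9.02). At TMEM80 the values were 9.30, 8.51 and 7.57. CACNG3 and TMEM80 had an S100A9 EtOH peak in 1 and 2 lists, and the other 3 sites in 0.

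The remaining sites among the 10 highest were spread over introns and intergenic places. A site 5446 bp downstream of the start of IRX5, a homeobox factor, had TAM fold enrichment of 10.97, 15.1 and 8.68. A site in an intron of RPAP2, an RNA polymerase II phosphatase, had 10.9, 10.2 and 10.9, and one in an intron of EXT1, a heparan sulfate polymerase, had 8.89, 11.1 and 13.4. At each of these 3 sites the highest replicate was less than 2 times the lowest. The site 74214 bp upstream of TCF7L2, a Wnt pathway factor, had 8.88, 11.6 and 9.96 and lay only 112 bp from an S100A8 peak. The sites nearest to RGMA, TRMT11, OR4C15, SLC35F4 and CLMN had values between 8.23 and 10.97. None of the 10 had an S100A9 peak in an EtOH list.

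Summit sequence was AT-richer at S100A9-only sites. The median GC content within 100 bp of the summit was 49.3%, against 58.2% at sites with an S100A8 peak, and the median number of CpG dinucleotides was 3 against 7. Distal sites alone gave 48.8% and 53.2%. Promoter-proximal S100A9-only sites had a median GC content of 55.7% and 7 CpGs, whereas promoter-proximal sites with an S100A8 peak had 66.7% and 19.

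Motifs were counted within 100 bp of the summit on both strands, and again in windows of the same size 1000 bp to either side. AP-1 was present at 385 S100A9-only sites (30.1%, 95% Wilson interval 27.7 to 32.7), against 3.75% of the flanking windows. At sites with an S100A8 peak the share was 25.2%, and over all S100A9 sites it was 25.4%. CTCF was present at 161 S100A9-only sites (12.6%, 10.9 to 14.5), against 0.586% of the flanking windows and 11.7% of all S100A9 sites. In total, 737 S100A9-only sites (57.6%) held neither motif, and 4 held both.

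Both motifs were centred on the summits. The median distance from an AP-1 match within 100 bp to the summit was 26 bp and that of a CTCF match was 17.5 bp, compared with 29 and 18.5 bp at sites with an S100A8 peak. Of these matches, 77.9% for AP-1 and 94.5% for CTCF were within 50 bp. The 2 sets of sites thus differed by 3 bp or less in these medians.

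**Figure D5:**
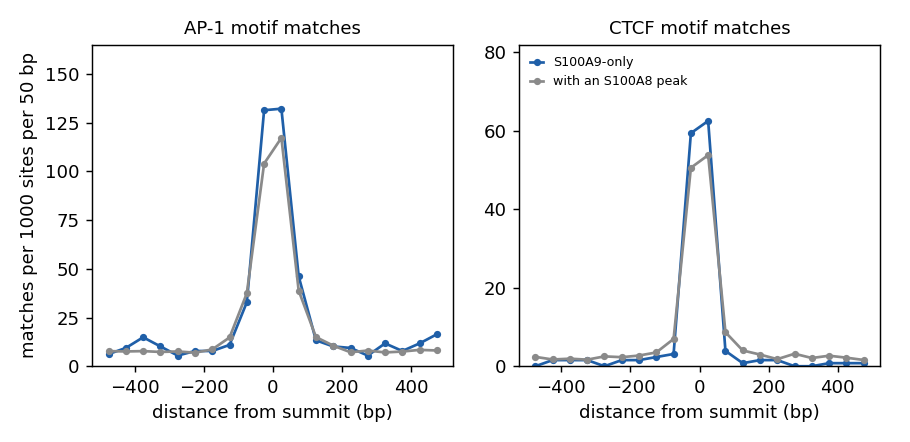
Matches per 1000 sites in bins of 50 bp (vertical axes) by distance from the S100A9 summit (horizontal axes, bp) for AP-1 (left) and CTCF (right). Blue is S100A9-only sites and grey is S100A9 sites with an S100A8 peak. The 2 bins beside the summit hold 131 and 132 AP-1 matches and 59.4 and 62.5 CTCF matches per 1000 S100A9-only sites.

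The higher AP-1 share went with place. Among distal sites AP-1 was present at 31.6% of S100A9-only sites (28.9 to 34.3) and at 35.5% of the others (34.7 to 36.2). Each TAM library gave this order for the distal sites it called, with 31.8%, 29.5% and 32.5% against 36.6%, 35.0% and 35.4%. Those library shares were taken over largely the same sites and are not independent. The order also held in each of 3 equal groups of distal sites by GC content, with 36.9% against 46.6% in the most AT-rich group, 29.4% against 39.8% in the middle one and 14.4% against 21.2% in the most GC-rich one. It did not hold in all rank groups of S100A9 percentile: the lowest gave 34.5% in both sets and the highest 36.0% against 35.9%, with 27.0% against 35.2% and 27.4% against 36.5% between them. At promoters the order was the opposite, with AP-1 at 19.2% of the 151 S100A9-only sites (13.7 to 26.2) and at 8.17% of the others.

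CTCF shares at distal sites were 13.5% (11.6 to 15.6) and 14.002% (13.5 to 14.6), with intervals that overlapped. Sequences that differ from AP-1 at 1 base were common everywhere: 60.0% of distal S100A9-only sites held one, 55.7% of other distal sites did, and 49.4% of the flanking windows of the S100A9-only sites did.

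The promoter motifs were scarce. ETS (CGGAAG) was present at 4.53% of S100A9-only sites, against 14.1% of all S100A9 sites, and KLF/SP1 (CCCCGCCC) at 3.13% against 11.4%. Within promoters alone, ETS was at 7.28% of S100A9-only sites (4.12 to 12.6) and 26.5% of the others, and KLF/SP1 at 16.6% (11.5 to 23.3) and 24.0%. CREB (TGACGTCA) was at 3 of 1279 S100A9-only sites (0.235%) and 1.42% of the others. The ETS share was thus lower within promoters as well. At S100A9 sites whose S100A8 peaks all had a −log10 q under 7, ETS was at 9.83% and KLF/SP1 at 7.59%.

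Of the other motifs, C/EBP (TTACNNAA or TTGCNNAA) was at 21.4% of S100A9-only sites, with 19.1% in their flanks and 16.2% over all S100A9 sites, and TEAD (GGAATG) was at 16.9%, with 10.6% and 13.03%. RUNX (TGTGGT) was at 15.6%, with 13.4% in the flanks and 12.97% over all S100A9 sites. The E-box (CACGTG) was at 3.21%, above its flanks (2.15%) and below the 5.78% of all S100A9 sites. STAT (TTCNNNGAA) was at 6.10%, with 5.98% and 5.61%, NFY (CCAAT) at 22.6%, with 25.1% and 19.7%, and the p53/p63 motif at 1.17%, with 0.977% and 0.740%. A match does not show that a factor was bound.

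EtOH occupancy differed among the motif groups. S100A9-only sites with AP-1 and no CTCF motif (381 sites) had an S100A9 EtOH peak in 3.94%, 1.57% and 4.20% of cases in replicates 1 to 3. Those with CTCF and no AP-1 motif (157 sites) had 7.01%, 4.46% and 14.6%, and those with neither had 8.55%, 3.12% and 10.7%. Of these 3 groups, AP-1 sites had the lowest share in each library. At S100A9 sites with an S100A8 peak AP-1 sites were lower than CTCF sites in each library as well (22.8%, 11.01% and 25.4% against 35.5%, 19.8% and 38.5%), and the share at S100A9-only sites was below that of the others within each motif group.

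The 287 S100A8-only sites, found by the mirror rule, had much in common with the S100A9-only sites. They were 226 bp wide at the median, promoter-proximal in 14.6% of cases (11.01 to 19.2), and 49.3% GC, and 29.3% (24.3 to 34.8) held AP-1. Promoter motifs were scarce in both sets, with ETS at 3.83% and KLF/SP1 at 1.39% here, against 4.53% and 3.13% of S100A9-only sites. For the S100A8-only sites, the median gap to the nearest S100A9 peak was 2407 bp. CTCF was at 6.62% of them (4.28 to 10.1), below the 12.6% at S100A9-only sites, with intervals over sites that did not overlap. These intervals cover counting error over sites only, and the difference between the proteins was not tested over libraries.

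The S100A9-only share varied by chromosome. It was highest on X, where 40 of 322 S100A9 sites (12.4%, 9.26 to 16.5) were S100A9-only, and lowest on chromosome 19, with 30 of 1176 (2.55%, 1.79 to 3.62). S100A9 sites on X were called in all 3 libraries less often (33.5%) than those on any other chromosome and had the lowest median width (282.5 bp), whereas those on chromosome 19 had the highest promoter-proximal share (51.8%) and a median width of 375 bp. The part of these values in the shares was not tested.

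Genes were assigned with the distances of the study's methods: a promoter-proximal summit or, for distal summits, a start within 50 kb or a gene body over the summit. The study first sorted peaks by histone marks and used another annotation, whereas here every summit that was not promoter-proximal was treated as distal. By this measure 982 S100A9-only sites (76.8%) had a target among protein-coding genes, and 1579 of 20090 such genes (7.86%) were a target of at least 1 of them, or 11.1% of the 14267 genes with any S100A9 site. Only 275 genes had S100A9-only sites and no other S100A9 site, and these alone were the targets of 118 S100A9-only sites. Most targets therefore also had an S100A9 site that overlapped an S100A8 peak of some q. This is to be read beside the 71.0% of all protein-coding genes that had any S100A9 site.

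The genes with the most S100A9-only sites were KIAA1217 and NAV2, with 4 each, beside 5 and 15 other S100A9 sites. They are long genes of 853103 and 770877 bp. First in alphabetical order among the 9 genes with 3 sites each were CACNA1E, a calcium channel gene, FHOD3, a formin, and JUP, which encodes the junction protein plakoglobin and spans 32328 bp. No gene had more than 4. Distal sites outside a gene are counted for it where its start is within 50 kb.

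Target genes were counted in 10 lists of genes tied to S100 biology and transformation. The counts are to be read beside the 7.86% of all protein-coding genes and the 11.1% of those with any S100A9 site. In the interleukin-6, LIF and STAT3 list, 5 of 16 genes (31.3%) were targets, and all 16 had some S100A9 site. These were IL6ST (the shared receptor gp130), LIF and OSM (cytokines of this family), OSMR (the oncostatin M receptor) and JAK1 (a kinase under these receptors). LIF and OSM shared 1 site, in an untranslated or noncoding exon of OSM, with fold enrichment of 6.95 and 8.68 in TAM replicates 1 and 2 and no peak in replicate 3. The JAK1 site, in an intron, was called in all 3 libraries with 8.97, 10.3 and 8.24. The 2 sites assigned to IL6ST and the site in an OSMR intron had peaks in replicates 1 and 3 only, with 8.62 and 7.0005, 8.62 and 7.62, and 7.05 and 9.07.

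Extracellular S100A8/A9 acts through the receptors TLR4 and RAGE. Of 15 genes for these receptors and their adaptors, 1 (6.67%, near the share over all genes) was a target, TRAF6, through a site inside RAG1. Among 13 NF-κB subunits and inhibitors, 2 were targets: NFKBIA and NFKBIE, both inhibitors that hold NF-κB in the cytoplasm. The NFKBIA site at chr14:35871589-35872063 lay 5 bp from a start, with fold enrichment of 8.12 and 6.90 in TAM replicates 1 and 3 and none in replicate 2, and the nearest S100A8 peak was 832 bp away. None of 18 S100 family genes was a target, although all 18 had other S100A9 sites.

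In the TGF-β list 3 of 14 genes were targets, among them TGFB2, a ligand, with 2 sites in its introns, and SMAD7, an inhibitor of the pathway. In the epithelial-mesenchymal transition list 2 of 15 were targets. One was ZEB2, a repressor of epithelial genes, whose site lay 9 bp from a start with 9.74 and 6.63 in TAM replicates 2 and 3 and an EtOH peak in replicate 2, and the other was ESRP1, an epithelial splicing factor. The EGF receptor list gave 1 of 12, ERBB4, with 2 sites in its introns. ERBB4 and ZEB2 were the list members with no other S100A9 site. The basement membrane adhesion list gave 1 of 14 (ITGB4, through a site in SAP30BP), the YAP/TAZ and TEAD list 1 of 13 (TEAD4) and the AP-1 subunits 1 of 11 (BATF3, through a site in NSL1). The lists are small, and nothing particular to any of them is read from these counts.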

How the data were processed

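Peak lists from 11 Flag chromatin immunoprecipitation libraries were used. Per the labels and the study's methods, the authors aligned reads to hg19 with Bowtie2, kept unique reads and called peaks with MACS2 per library against its input; versions were not given in the sources used here. The deposited columns used were fold enrichment over input (a ratio), −log10 q and the summit. Read numbers were not used here, so depth is unknown, and intervals cover counting error over sites only. The study's further minimum on reads per peak could not be applied. The study's methods call the replicates biological, but the labels do not say that they came from separate cultures.

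Peaks with −log10 q of at least 7 were merged by 1 bp overlap, and regions of at least 2 replicates kept. Annotation was GENCODE release 44 lifted to GRCh37; sequence was GRCh37. Analyses used Python 3.11.15, NumPy 2.4.6, pandas 2.3.3 and SciPy 1.17.1, and were tested on simulated lists. The sites, gene lists, motifs and comparisons were chosen with earlier results of these data known. Named sites followed fixed rules: the 10 highest by mean percentile among those called in 3 libraries, those with a peak in every S100A9 EtOH list, the 5 highest promoter-proximal ones, the 5 farthest from S100A8 peaks, the 5 genes with most sites, listed genes, and sites at the thresholds. Pol II and input libraries were not analysed here, and a few named items are not reported here. Alternatives changed thresholds, overlap, libraries and windows.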

Additional observations from a re-analysis of the deposited data

Results flagged for a closer look

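Outside chromosomes 1 to 22 and X, which the comparisons did not use, 3 S100A9-only sites lay on 3 other sequences of the lists, among 31 S100A9 sites there. No group held enough libraries (4 or more) for a check of single outlying libraries.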

How the results depend on the processing

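The number and share of S100A9-only sites moved most with the peak threshold, the replicates required and the S100A8 peaks counted. They were 326 (2.23%) at a −log10 q of 10, 7744 (14.9%) with every S100A9 TAM peak as deposited, 160 (1.48%) with all 3 replicates required, 9849 (18.6%) with 1, 732 (3.64%) with equal numbers of peaks per list, and 4719 (18.8%) with S100A8 peaks of −log10 q of 7 or more only. The number stayed within 1.5 times with an overlap of 0.5 of the shorter region (1387, 5.52%), against S100A8 TAM lists only (1483, 5.90%), with no S100A8 peak within 1000 bp (937, 3.73%) and with every sequence in the lists (1282). Leaving out 1 library gave 320 to 2523 sites, or 2.55% to 10.04%: without S100A9 TAM replicates 1, 2 and 3 there were 631, 658 and 320, and without S100A8 TAM replicates 1, 2 and 3 there were 2523, 2058 and 2024. The construction (more or fewer peaks admitted) moves these counts.

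The lower EtOH share at S100A9-only sites kept its sign under all 24 alternatives, from −35.9 points (all 3 replicates) to −8.87 (EtOH peaks of −log10 q of 7 or more), with −33.1 to −24.5 when 1 library was left out. It was −25.1 points with the S100A8 EtOH lists taken out of the rule. No paired analysis was possible because no groups of libraries that share replicate numbers were compared; the pairing in the only test is of the 2 site sets within each EtOH library.

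The promoter-proximal share was 8.75% for sites called in all 3 replicates, 6.83% with no S100A8 peak within 1000 bp, 16.5% with the starts of all annotated genes, and 9.42% to 13.1% with 1 S100A9 TAM library left out. AP-1 was at 24.1% within 50 bp of the summit, and at 27.2% to 31.8% with a library left out; CTCF was at 10.8% to 13.8% with a library left out. The cause of these differences was not tested.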
